A study of Mus musculus with 15 samples.

Results

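Immature XCR1+ dendritic cells (DCs) of the mouse thymus were compared with their counterparts in the spleen. XCR1+ DCs are the conventional DC lineage that depends on the transcription factors Batf3 and Irf8, takes up dying cells and cross-presents their antigens to CD8 T cells. In the thymus these cells carry self antigens to developing thymocytes and take part in negative selection and in the formation of regulatory T cells. In the spleen they sit among blood-borne material and T cells, and on maturation in either organ they gain CCR7, the receptor that guides them to the chemokines of T cell zones.

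The members were chosen by sample label and not by any measured value. They are 6 of the 15 arrays of the study, 3 of thymus CCR7- cells and 3 of spleen CCR7- cells, both from untreated mice. Both were sorted as CD11c+ CD317- CD172a- cells that were CD117+ and CCR7-. The other 9 arrays, which entered the fit as 3 further groups, hold thymus CCR7+ and spleen CCR7+ cells of untreated mice, sorted as CD117- CCR7+ within the same outer gates, and spleen CCR7+ cells of mice given 10 µg polyI:C by the intraperitoneal route 18 h before harvest. PolyI:C is a synthetic double-stranded RNA that triggers Tlr3. The strain and age of the mice, how many animals made up an array and whether arrays came from separate sorts are not given in the labels used here, so the p-values measure only the spread between these arrays. XCR1 stands in the sample names but not among the gates.

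Values are log2 RMA signals (RMA is the normalisation used for Affymetrix arrays), so a difference of 1 is a 2-fold change. RMA gives no detection call, and dim signals are compressed. Signals at or under 4.39, the 40th percentile of all values, are called dim here. Differences are thymus minus spleen, and a difference was called where limma gave a Benjamini-Hochberg adjusted p below 0.05 over all 13629 genes tested. Adjusted p-values below come from that fit across 15 arrays, which did not pair the replicate numbers, unless another setting is named.

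The array values were checked against the labels first. Xcr1 itself had 11.58, 11.48 and 11.13 in thymus and 11.81, 11.50 and 11.43 in spleen, which overlap. Irf8, Id2 and Batf3, transcription factors of the lineage, differed between the tissues by -0.08, 0.00 and -0.30, and none was called. The wider XCR1+ DC programme, taken up further on, was not level throughout. Of its 23 tested genes 2 were called higher (8.70%, beside 4.92% of all genes) and 4 lower (17.4%, beside 3.24%). The median was -0.33. Among the 5 gated proteins, the transcripts of 4 (Itgax for CD11c, Sirpa for CD172a, Kit for CD117 and Ccr7) were not called. The exception was Bst2, the transcript of CD317, which had 10.34, 10.43 and 10.29 in thymus, against 8.51, 8.50 and 8.53 in spleen, although both samples were gated as CD317-. Bst2 was 3.58-fold higher in thymus (log2 difference 1.84 ± 0.16 SE, adjusted p = 4.77e-06). It is itself an interferon-inducible gene. Correlations between arrays were 0.986 to 0.990 within thymus, 0.984 to 0.988 within spleen, and 0.960 to 0.975 between the tissues.

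Of the 13629 genes tested, 1112 were called (8.16%), 671 higher in thymus (4.92%) and 441 lower (3.24%). At least 2-fold differences were found for 405 of the higher genes (2.97% of all tested) and 265 of the lower ones (1.94%). The 3 thymus arrays lay entirely above or below the 3 spleen arrays for 1100 of the called genes. Over all tested genes the share was 25.9%. Nearly all called genes were thus without overlap, so a lack of overlap below adds little to a call. The median difference over all tested genes was 0.04. These are bulk samples, in which fewer cells of a type and less RNA per cell cannot be told apart.

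The largest rise was that of Zmynd15, a MYND-type zinc finger gene known in the mouse as a transcriptional repressor of male germ cells. Zmynd15 had 10.53, 11.33 and 11.00 in thymus, against 3.38, 5.34 and 5.37 in spleen. Every thymus array was thus far above every spleen array, 1 of which was dim. The log2 difference was 6.26 ± 0.43 SE (adjusted p = 3.44e-07). Cldn1, a tight junction claudin, came next with 12.30, 11.90 and 11.96 in thymus, against 6.89, 6.68 and 6.88 in spleen, a 37.7-fold difference (adjusted p = 1.00e-08). Its other tested probe set gave a smaller difference of 3.79.

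Several cell surface receptors followed. Klrb1b, a lectin-like inhibitory receptor best known from NK cells, had 9.51, 9.77 and 9.49 in thymus and 5.52, 4.41 and 4.62 in spleen. Cd84, a self-binding receptor of the SLAM family, had 8.84, 8.72 and 8.86 in thymus and was dim in spleen at 4.25, 3.93 and 4.26. F2r, the thrombin receptor PAR1, had 10.78, 11.56 and 11.07 in thymus, against 6.46, 7.15 and 6.86 in spleen. The groups were far apart for each, at log2 differences of 4.74 for Klrb1b, 4.66 for Cd84 and 4.31 for F2r. Tm4sf5, a tetraspanin-like membrane protein, and Ms4a6d, a member of the MS4A family, rose by 3.88 and 3.66. Rag1, the recombinase of developing lymphocytes, rose by 3.64 and is taken up with the T cell markers further on.

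The falls were led by Ptgis, prostacyclin synthase. Ptgis had 4.58, 4.45 and 4.65 in thymus, against 8.73, 9.24 and 9.50 in spleen, a log2 difference of -4.60 ± 0.22 SE (adjusted p = 1.11e-08). Gp2, a receptor for bacterial pili on M cells, had 4.0, 3.86 and 4.03 in thymus and 7.97, 8.21 and 7.94 in spleen. Serpinb2, an intracellular inhibitor of urokinase, had 3.55, 3.47 and 3.29 in thymus and 8.22, 6.5 and 7.76 in spleen. Gp2 and Serpinb2 were dim in all thymus arrays, so that their differences of -4.08 and -4.06 are compressed. Adgre4, an adhesion receptor of the Adgre family, was also dim in thymus and differed by -3.54. Aldh1a2, a retinal dehydrogenase that makes retinoic acid, had 3.06, 3.75 and 4.25 in thymus, against 6.17, 7.30 and 6.95 in spleen (log2 difference -3.12 ± 0.32 SE, adjusted p = 2.07e-05). Trpm2, a calcium-permeable channel opened by ADP-ribose, fell by 2.91, although its other tested probe set gave -0.55. Zc3h12d, an RNA-binding protein that dampens inflammatory transcripts, fell by 2.86. Cacna1e, a voltage-gated calcium channel subunit, fell by 2.84 on its brightest probe set and differed by -0.08 on the other.

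**Figure D1:**
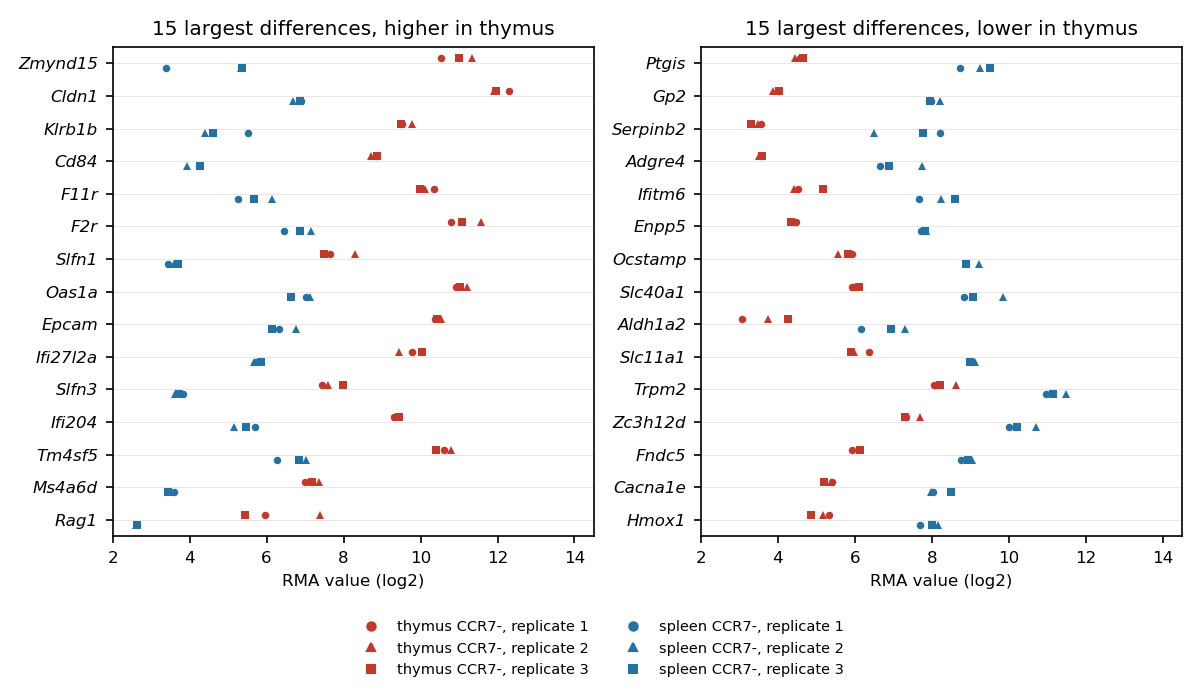
Log2 RMA values (x axis) of the 15 genes with the largest called rises (left panel) and the 15 with the largest called falls (right panel), 1 point per array, thymus above spleen for each gene, with the marker shape giving the replicate. Genes were picked only where the 3 thymus arrays lay on one side of the 3 spleen arrays, so the separation shown was fixed by the choice. Values run from Zmynd15 at 10.53 or more against 5.37 or less to Hmox1 at 5.34 or less against 7.68 or more.

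The most calls of any list were in genes of the type I interferon response. Like the other lists, it was chosen with earlier results of these data known, so its counts are a description. Type I interferons bind the Ifnar receptor and switch on antiviral effectors and sensors. Many of these genes carry in their promoters the interferon-stimulated response element, whose core is a repeat of GAAA. Of the 31 tested list members 25 were called higher in thymus and 0 lower, against 4.92% and 3.24% of all tested genes, and the median difference was 1.78. All 31 differences were positive. The summed linear signal of the listed genes was 29985 to 34837 in thymus and 10481 to 11533 in spleen.

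The promoters of 3 of these genes, picked among those that hold the repeat, are shown because their repeats of GAAA, spaced by 2 bases of any kind, are the sequence feature that the group is known for. Each is the 250 bases before the RefSeq gene start (GRCm38.p6), 5′ to 3′ along the gene's own strand, with the repeat in capitals on either strand (TTTC, 2 bases, TTTC where it lies on the opposite one). Oas1a is at chr5:120907526-120907775 on the minus strand, Rsad2 at chr12:26456453-26456702 on the minus strand and Ifit1 at chr19:34640639-34640888 on the plus strand. Oas1a holds 2 overlapping repeats, Ifit1 holds 2 separate ones and Rsad2 holds 1.
Oas1a: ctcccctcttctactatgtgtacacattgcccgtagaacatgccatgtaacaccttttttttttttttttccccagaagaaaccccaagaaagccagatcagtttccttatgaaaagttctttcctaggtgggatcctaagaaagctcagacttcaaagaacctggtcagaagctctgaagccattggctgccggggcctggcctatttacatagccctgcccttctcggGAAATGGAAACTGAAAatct
Rsad2: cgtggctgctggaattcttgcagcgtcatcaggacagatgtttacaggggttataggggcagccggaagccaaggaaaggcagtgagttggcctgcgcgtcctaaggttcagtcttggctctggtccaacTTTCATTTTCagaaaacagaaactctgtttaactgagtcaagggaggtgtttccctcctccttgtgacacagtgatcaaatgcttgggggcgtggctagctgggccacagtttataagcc
Ifit1: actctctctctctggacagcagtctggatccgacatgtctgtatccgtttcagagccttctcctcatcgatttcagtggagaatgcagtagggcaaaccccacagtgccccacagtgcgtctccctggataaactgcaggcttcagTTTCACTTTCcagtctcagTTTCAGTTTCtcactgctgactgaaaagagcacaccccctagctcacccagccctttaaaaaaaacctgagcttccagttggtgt

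A promoter was matched for 23 of the 31 tested list members, and 9 of these 23 held the repeat. Of the 20 matched members called higher, 7 held it. The repeat was present in 978 of all 32851 promoters of this length (2.98%), and in 355 of the 10990 tested genes with a promoter (3.23%). A match describes these letters only and is not a site shown to be used. Oas1a, an oligoadenylate synthetase that acts through RNase L on viral RNA, had 10.93, 11.20 and 11.03 in thymus, against 7.02, 7.12 and 6.64 in spleen. It was 17.5-fold higher in thymus (log2 difference 4.13 ± 0.22 SE, adjusted p = 2.12e-08). Rsad2, the antiviral enzyme viperin, had 11.45, 11.99 and 11.74 in thymus, against 7.81, 8.54 and 8.51 in spleen. Ifit1, which binds viral RNA caps, had 6.64, 7.23 and 6.75 in thymus, against 4.02, 4.26 and 4.36 in spleen. For all 3 genes the thymus arrays lay above every spleen array, by more than the spread within either tissue.

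Further list members moved the same way. Xaf1, a pro-apoptotic binder of XIAP, had 9.24, 9.54 and 9.32 in thymus, against 5.86, 5.77 and 5.95 in spleen (log2 difference 3.51 ± 0.16 SE, adjusted p = 1.00e-08). Ifit2, a relative of Ifit1, had 11.08, 11.15 and 10.84 in thymus, against 8.07, 8.02 and 8.17 in spleen. Cmpk2, a mitochondrial nucleotide kinase, rose by 3.17 and Irf7, the transcription factor that amplifies interferon production, by 2.38. Usp18, which shuts off signalling at the interferon receptor, had 11.22, 11.26 and 11.11 in thymus, against 8.47, 8.31 and 8.44 in spleen. The cytosolic RNA sensors Ifih1 (MDA5) and Ddx58 (RIG-I) rose by 1.47 and 1.49, the call of Ddx58 resting on 1 of its 3 tested probe sets (0.03 to 1.49). Ifi27l2a, a mitochondrial interferon-induced gene outside the list, rose by 4.01. Not called were Ddx60, Ifit3, Mx1, Mx2, Oas2 and Irf9, whose differences ran from 0.13 for Irf9 to 0.91 for Ddx60. Mx1 had 7.31, 6.91 and 7.34 in thymus and 6.79, 6.14 and 7.57 in spleen, an overlap that sets it apart from Oas1a. Ifnb1, interferon beta itself, differed by -0.01 and was not called.

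The same list can be placed beside cells taken after polyI:C. The mean log2 signal of its members was 8.75 ± 0.10 in thymus CCR7- cells, 6.98 ± 0.06 in spleen CCR7- cells and 10.62 ± 0.35 in polyI:C spleen CCR7+ cells (SD, n = 3 each). Thymus CCR7+ cells were at 8.50 ± 0.12 and untreated spleen CCR7+ cells at 7.20 ± 0.16. In CCR7+ cells of untreated mice 23 of the 31 members were called higher in thymus, against 8.71% of all tested genes in that direction, with a median difference of 1.28. The difference between the tissues depended on the fraction for 5 of the 31, against 3.18% of all tested genes. Plasmacytoid DCs are a known source of type I interferon. Of their 8 tested markers Siglech alone was called, higher by 0.73 (12.5%, beside 4.92% of all genes). Of the 8 differences 6 were positive, and the median was 0.22. The call of Siglech was lost without thymus replicate 1 (0.68) or spleen replicates 1 or 3 (0.65 and 0.66). With the replicate number as a block 2 markers were higher and 1 lower. The summed signal of the list was 1882 to 2157 in thymus and 1447 to 1983 in spleen, which overlap. Its part in the result was not tested.

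Genes that answer mainly to interferon gamma gave another picture. Of 14 tested members 0 were called higher (beside 4.92% of all genes) and 3 lower (21.4%, beside 3.24%). At an unadjusted p under 0.05 in limma, 1 was higher and 4 were lower. The median difference was 0.16. Gbp2, a guanylate-binding GTPase, had 6.5, 7.22 and 6.81 in thymus, against 7.56, 7.52 and 7.96 in spleen (adjusted p = 0.00972), and its call was lost without thymus replicate 1 (-0.66) or spleen replicate 3 (-0.70). The other called members were Ido1 (-1.18), the tryptophan-degrading enzyme, and Cxcl9 (-0.67), a chemokine for Cxcr3. Ido1 lost its call without any 1 of the 6 arrays other than thymus replicate 1 (-1.08 to -1.26), and Cxcl9 without any 1 of the 6 (-0.59 to -0.74) and with the replicate number as a block (adjusted p = 0.0672). The list thus had 0 or 1 lower calls with any 1 array left out.

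Families next to the interferon response split. They were chosen after the values were seen, so that their counts are a description. Schlafen genes, which are linked to lymphocyte quiescence and to antiviral defence, were called higher for 7 of 8 tested members. That is 87.5%, beside 4.92% of all genes, and the median was 1.80. Slfn1 had 7.64, 8.31 and 7.50 in thymus, against 3.43, 3.6 and 3.71 in spleen, and Slfn3 had 7.44, 7.59 and 7.99 against 3.83, 3.61 and 3.73. Both were thus clear of background in thymus and dim in spleen. PYHIN genes, which include nuclear and cytosolic DNA sensors, were called higher for 5 of 8 and lower for 1, Aim2 (-0.66). The call of Aim2 was lost without any 1 of the 6 arrays other than thymus replicate 2. The PYHIN shares were 62.5% higher and 12.5% lower, beside 4.92% and 3.24% of all genes. Ifi204, a DNA sensor of this family, had 9.30, 9.36 and 9.45 in thymus, against 5.71, 5.16 and 5.47 in spleen (log2 difference 3.92 ± 0.32 SE, adjusted p = 2.14e-06). Mndal rose by 3.06 and Ifi213 by 2.72. Members of both families resemble each other closely, and probe sets may pick up more than 1 of them.

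The Ifitm family, membrane proteins that block viral entry and are also interferon-inducible, went the other way. Of 7 tested members 0 were called higher (beside 4.92% of all genes) and 3 lower (42.9%, beside 3.24%). Ifitm6 had 4.52, 4.41 and 5.16 in thymus, against 7.67, 8.24 and 8.60 in spleen. Ifitm2 had 6.80, 7.28 and 7.20 in thymus, against 8.62, 9.26 and 9.32 in spleen. Ifitm3 differed by -1.20 (adjusted p = 1.72e-04). The 3 called members did not overlap between the tissues.

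**Figure D2:**
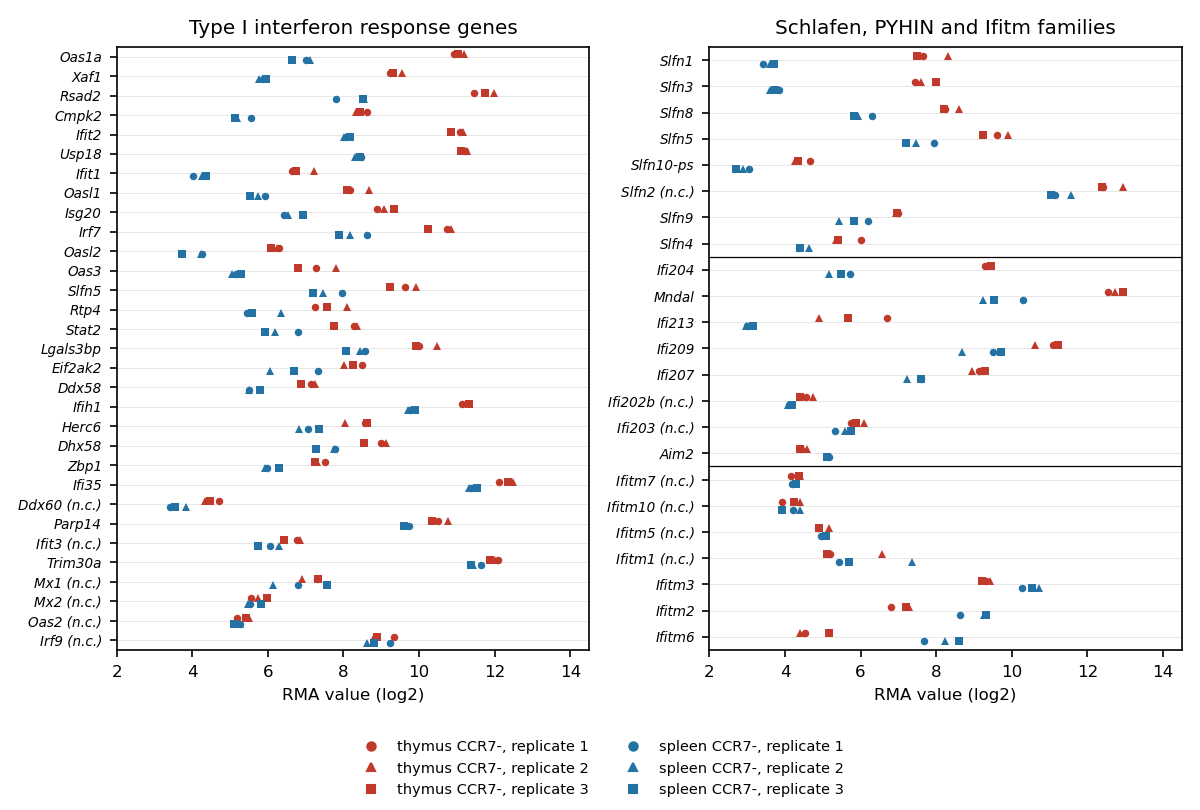
Log2 RMA values (x axis) of all tested type I interferon response genes (left panel) and of the Schlafen, PYHIN and Ifitm families, top to bottom and divided by lines (right panel), 1 point per array, thymus above spleen for each gene. Genes marked n.c. were not called. Thymus points lie to the right for 25 called genes of the left panel, and to the left for Ifitm2, Ifitm3, Ifitm6 and Aim2 among the called genes of the right panel.

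Cell cycle genes were higher in thymus in part, and unevenly so among the spleen arrays. Of 28 tested cell cycle genes 13 were called higher (46.4%, beside 4.92% of all genes) and 0 lower (beside 3.24%). The median was 1.33, and all 28 differences were positive. Their mean log2 signal was 9.85, 9.63 and 9.65 in thymus, against 9.23, 8.08 and 8.01 in spleen, so that spleen replicate 1 stood apart from the other spleen arrays and near the thymus ones. Without spleen replicate 1 the count was 21. It was 4 without spleen replicate 2, 6 without spleen replicate 3, and 6, 8 and 8 without thymus replicates 1, 2 and 3.

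Cdc20, the activator of the anaphase-promoting complex, had 10.22, 10.15 and 10.07 in thymus, against 8.78, 7.62 and 7.53 in spleen (log2 difference 2.17 ± 0.34 SE, adjusted p = 8.36e-04). Cdk1, the kinase that drives entry into mitosis, had 10.99, 10.90 and 11.00 in thymus, against 9.71, 8.40 and 8.71 in spleen. Plk1, a mitotic kinase, had 8.91, 9.11 and 8.53 in thymus, against 7.74, 6.83 and 6.12 in spleen. All 3 genes kept the tissues apart, with spleen replicate 1 the highest spleen array each time. Replication and S phase genes were mixed. Cdc6 (1.38), Tk1 (1.47), Ccne1 (1.08) and Cdt1 (0.89) were called higher, but each lost the call without thymus replicate 1 or 2, or spleen replicate 2 or 3 (0.72 to 1.46 over the 4 genes and these omissions). Others overlapped between the tissues and were not called. Pcna, the sliding clamp, had 12.65, 12.29 and 12.64 in thymus and 12.57, 11.85 and 12.02 in spleen. Mcm2, of the replicative helicase, had 10.29, 9.92 and 10.13 in thymus and 10.55, 9.16 and 9.31 in spleen, and was called without spleen replicate 1 (0.88, adjusted p = 0.0292). In CCR7+ cells of untreated mice 1 of the 28 cell cycle genes was called higher in thymus, beside 8.71% of all genes. There the mean log2 signal of the list was 7.15 ± 0.35 in thymus and 6.68 ± 0.42 in spleen (SD, n = 3 each).

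Some genes that DCs gain on maturation were already higher in thymus CCR7- cells. Of 28 tested maturation genes 9 were called higher (32.1%, beside 4.92% of all genes) and 1, Cd83, lower (-0.60). The lower share was 3.57%, beside 3.24% of all genes, and the median was 0.29. The call of Cd83 was lost without any 1 of the 6 arrays other than spleen replicate 1 (-0.46 to -0.66). The count of rises was 6 to 10 with any 1 array left out and 6 with the 6 CCR7- arrays fitted alone. Fscn1 (2.19) overlapped between the tissues and was called on 1 of its 4 tested probe sets (0.23 to 2.19). Fscn1, Anxa3 (1.54) and Socs2 (1.21) each lost the call without thymus replicate 2 and with the 6 CCR7- arrays alone. Ccl17, a chemokine for Ccr4, had 8.93, 9.33 and 9.0 in thymus, against 5.74, 6.35 and 6.29 in spleen (log2 difference 2.96 ± 0.30 SE, adjusted p = 1.48e-05). Ccl22, which shares that receptor, had 10.92, 11.91 and 11.10 in thymus, against 7.76, 9.19 and 8.75 in spleen. Il12b, a subunit of IL-12 and IL-23, had 9.22, 9.26 and 9.24 in thymus, against 6.83, 7.85 and 8.53 in spleen. The tissues did not overlap for these 3 genes. Cd40, the receptor for T cell help, had 10.89, 11.36 and 11.16 in thymus, against 9.69, 10.02 and 10.24 in spleen. Cd70, a costimulatory ligand, rose by 1.64 and was dim in spleen. Ccr7 did not share this: it had 8.54, 9.22 and 8.75 in thymus and 7.47, 8.80 and 9.0 in spleen, and its log2 difference of 0.41 (adjusted p = 0.66) became -0.063 without spleen replicate 1. Spleen replicate 1 had the lowest maturation mean of the 6 arrays, 7.88, where the others had 8.52 to 9.23.

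**Figure D3:**
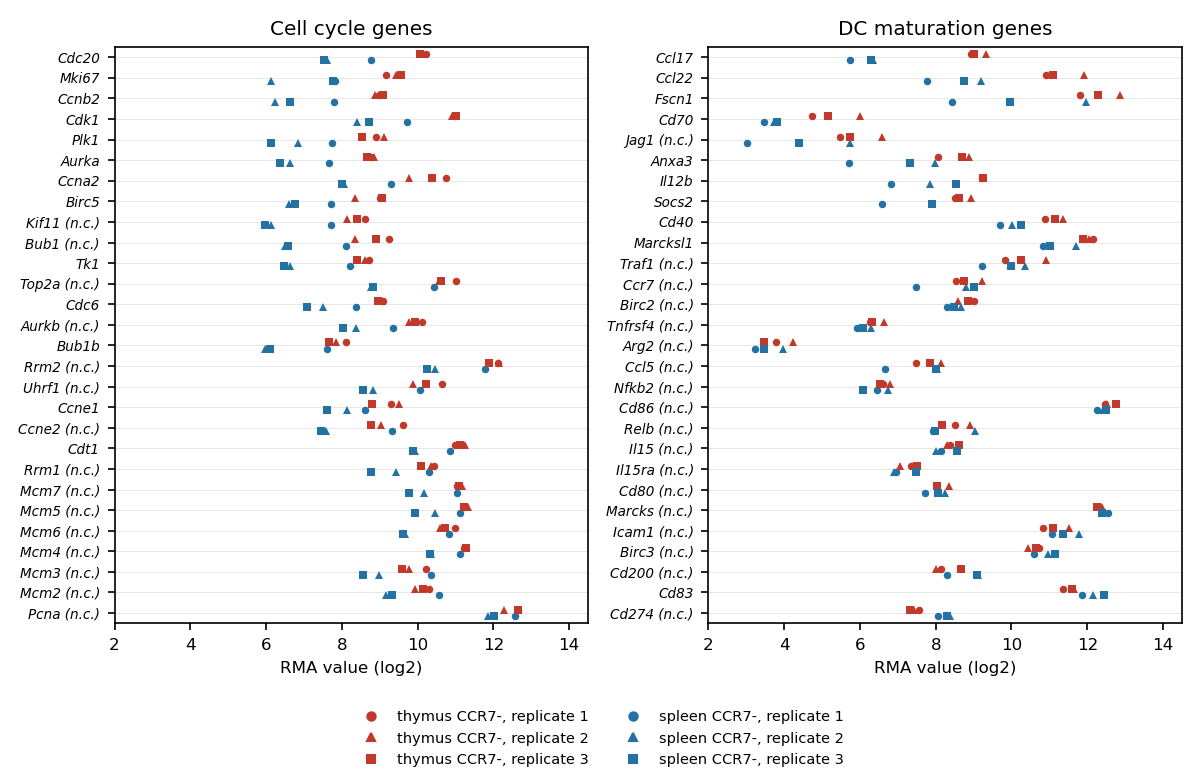
Log2 RMA values (x axis) of all tested cell cycle genes (left panel) and DC maturation genes (right panel), 1 point per array, thymus above spleen for each gene; n.c. marks genes not called. Spleen replicate 1 (blue circles) lies nearest to thymus in the left panel, where the spleen means over the list are 9.23, 8.08 and 8.01, and is lowest over the list in the right panel at 7.88.

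Secreted factors moved in both directions. Of 14 tested chemokines 3 were called higher (Ccl17, Ccl22 and Cxcl16) and 2 lower (Ccl6 and Cxcl9). The shares were 21.4% and 14.3%, beside 4.92% and 3.24% of all genes, and 1 was lower with the replicate number as a block. Ccl6, a CC chemokine of myeloid cells, had 5.84, 4.59 and 5.63 in thymus, against 7.87, 7.95 and 8.27 in spleen. Of 15 cytokine genes 3 were called higher (Tnfsf13b, Il6 and Il12b) and 1, Il1b, lower. These shares were 20.0% and 6.67%, beside 4.92% and 3.24% of all genes. Tnfsf13b, the B cell survival factor BAFF, had 7.98, 7.72 and 8.34 in thymus, against 4.80, 4.57 and 4.89 in spleen (log2 difference 3.26 ± 0.21 SE, adjusted p = 1.99e-07), and its other tested probe set gave 0.44. Il6 had 7.35, 6.55 and 8.15 in thymus, against 4.84, 4.05 and 5.57 in spleen. Il1b had 7.44, 6.94 and 8.44 in thymus, against 9.12, 9.79 and 10.51 in spleen. For Il6 and Il1b replicate 3 was the highest array in both tissues, and with the replicate number as a block the cytokines gave 3 calls in each direction.

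Molecules linked to tolerance were mixed as well. Of 15 tested genes 4 were called higher (26.7%, beside 4.92% of all genes) and 2, Aldh1a2 and Ido1, lower (13.3%, beside 3.24%). Lgals1, galectin-1, had 11.41, 11.44 and 11.61 in thymus, against 8.57, 8.09 and 8.42 in spleen (log2 difference 3.13 ± 0.28 SE, adjusted p = 4.46e-06). Lgals9, galectin-9, had 8.48, 8.73 and 8.12 in thymus, against 6.27, 5.68 and 5.16 in spleen. Both galectins bind glycans on T cells. The other called rises lost their calls with single arrays left out: Pdcd1lg2 (PD-L2), at 1.45, without thymus replicate 2 (1.24), and Socs3, at 1.73, without thymus replicate 3 (1.24) or spleen replicate 1 (1.63). Ido1, as above, made the count of falls 1 or 2.

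Within the XCR1+ DC programme 2 of 23 tested genes were called higher (8.70%, beside 4.92% of all genes) and 4 lower (17.4%, beside 3.24%). Of the 23 differences 4 were positive, and the median was -0.33. Cd207, langerin, had 12.16, 11.94 and 11.90 in thymus, against 10.00, 10.35 and 9.91 in spleen (log2 difference 1.92 ± 0.26 SE, adjusted p = 2.57e-04). Itgae, the CD103 integrin chain that binds E-cadherin, had 12.14, 12.32 and 12.11 in thymus, against 11.06, 11.06 and 10.85 in spleen. Cd8a, which marks these cells in spleen, had 10.34, 10.76 and 10.39 in thymus, against 12.58, 12.86 and 12.39 in spleen, and all 5 of its tested probe sets were called lower. Dpp4 (CD26), a peptidase, fell by 1.34, and Cadm1, an adhesion molecule of the lineage, by 1.15. Btla, an inhibitory receptor, fell by 0.88, a call lost without thymus replicates 2 or 3 (-0.86 and -0.78) or spleen replicates 1 or 2 (-0.78 and -0.88). The 3 thymus arrays were separate from the spleen arrays for each of these genes. Class I presentation genes were level: of 15 tested members 0 were called by limma, beside 8.16% of all genes. At an unadjusted p under 0.05 in limma there was 1 higher and 1 lower, while array weights called 1 lower. Of 14 class II genes 1 was called higher (7.14%, beside 4.92% of all genes) and 2 lower (14.3%, beside 3.24%). These counts were 0 or 1 and 1 or 2 with any 1 array left out. H2-Oa, a chain of the peptide-loading inhibitor H2-O, had 9.29, 9.52 and 9.42 in thymus, against 10.54, 11.03 and 10.83 in spleen.

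Toll-like receptor genes were lower where they were called. Of 19 tested Toll-like receptor and adaptor genes 0 were called higher (beside 4.92% of all genes) and 4 lower (21.1%, beside 3.24%). At an unadjusted p under 0.05 in limma 0 were higher and 4 lower. Tlr13, which senses bacterial ribosomal RNA in the mouse, had 7.21, 6.47 and 6.57 in thymus, against 8.58, 7.89 and 8.0 in spleen. Unc93b1, the chaperone of endosomal Toll-like receptors, had 8.70, 8.18 and 8.14 in thymus, against 9.74, 9.84 and 9.39 in spleen. Cd14, the co-receptor for lipopolysaccharide, fell by 1.66. Tlr12 differed by -1.28, and by -0.14 on its other tested probe set. Its call was lost without thymus replicates 2 or 3 or spleen replicates 1 or 2 (-1.04 to -1.28). Tlr3, the receptor for double-stranded RNA, differed by -1.03 and was not called (adjusted p = 0.279), but was with the 6 CCR7- arrays fitted alone (adjusted p = 0.023).

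Haem and iron genes were lower in thymus for 5 of 14 tested members and higher for 0. The shares were 35.7% and 0.0%, beside 3.24% and 4.92% of all genes. Hmox1, haem oxygenase, had 5.34, 5.16 and 4.87 in thymus, against 7.68, 8.17 and 8.0 in spleen (log2 difference -2.83 ± 0.27 SE, adjusted p = 8.24e-06). Slc11a1, a metal ion pump of phagosomes, had 6.37, 5.98 and 5.89 in thymus, against 9.04, 9.11 and 9.0 in spleen. Slc40a1, the iron exporter ferroportin, had 5.92, 5.99 and 6.12 in thymus, against 8.84, 9.85 and 9.06 in spleen, and its other tested probe set gave -0.92. Spic, a transcription factor of haem-recycling red pulp macrophages, fell by 1.49 and was dim in thymus. Hfe, which tunes iron uptake, fell by 1.11. No array of one tissue crossed into the other for these 5 genes, and the count was 5 under each omission of an array. Ferritin heavy chain, Fth1, was level at 13.31, 13.23 and 13.17 in thymus and 13.47, 13.41 and 13.30 in spleen (adjusted p = 0.576).

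Macrophage markers are given beside these genes. Of 14 tested markers 1 was called higher (7.14%, beside 4.92% of all genes) and 2 lower (14.3%, beside 3.24%). The rise was Axl (1.56, a call lost without any 1 of the 6 arrays other than spleen replicate 2). The falls were Spic and Cd5l. The summed signal was 3568 to 3856 in thymus and 3307 to 5044 in spleen, with spleen replicate 2 the highest. C1qa had 4.86, 4.84 and 5.09 in thymus and 4.89, 6.07 and 5.36 in spleen. Apoe, a lipoprotein abundant in macrophages, had 5.30, 5.43 and 5.27 in thymus, against 7.32, 8.54 and 7.83 in spleen. The part of macrophage RNA in the haem and iron differences was not tested. Cd5l lost its call with any 1 array left out (-1.87 to -2.58) and with the replicate number as a block (adjusted p = 0.0559).

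Lysosomal hydrolases, a list put together after the values were seen, were called lower for 12 of 38 tested members. They were called higher for 2 (0 or 1 with any 1 array left out), and the median was -0.32. The shares were 31.6% lower and 5.26% higher, beside 3.24% and 4.92% of all genes. Tpp1, a tripeptidyl peptidase, had 6.31, 6.47 and 6.22 in thymus, against 8.72, 8.95 and 8.68 in spleen (log2 difference -2.45 ± 0.15 SE, adjusted p = 1.50e-07). Acp5, an acid phosphatase of macrophages and osteoclasts, had 6.19, 6.12 and 6.03 in thymus, against 8.33, 8.23 and 7.86 in spleen. Gm2a, the activator protein for ganglioside breakdown, fell by 1.65, Ctsa, the protective protein of lysosomal glycosidases, by 1.96 (0.02 on its other tested probe set), Lyz2 (lysozyme) by 1.74 and Fuca1, a fucosidase, by 1.37. Their mean log2 signal over the list was 9.08 ± 0.04 in thymus and 9.57 ± 0.06 in spleen (SD, n = 3 each).

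**Figure D4:**
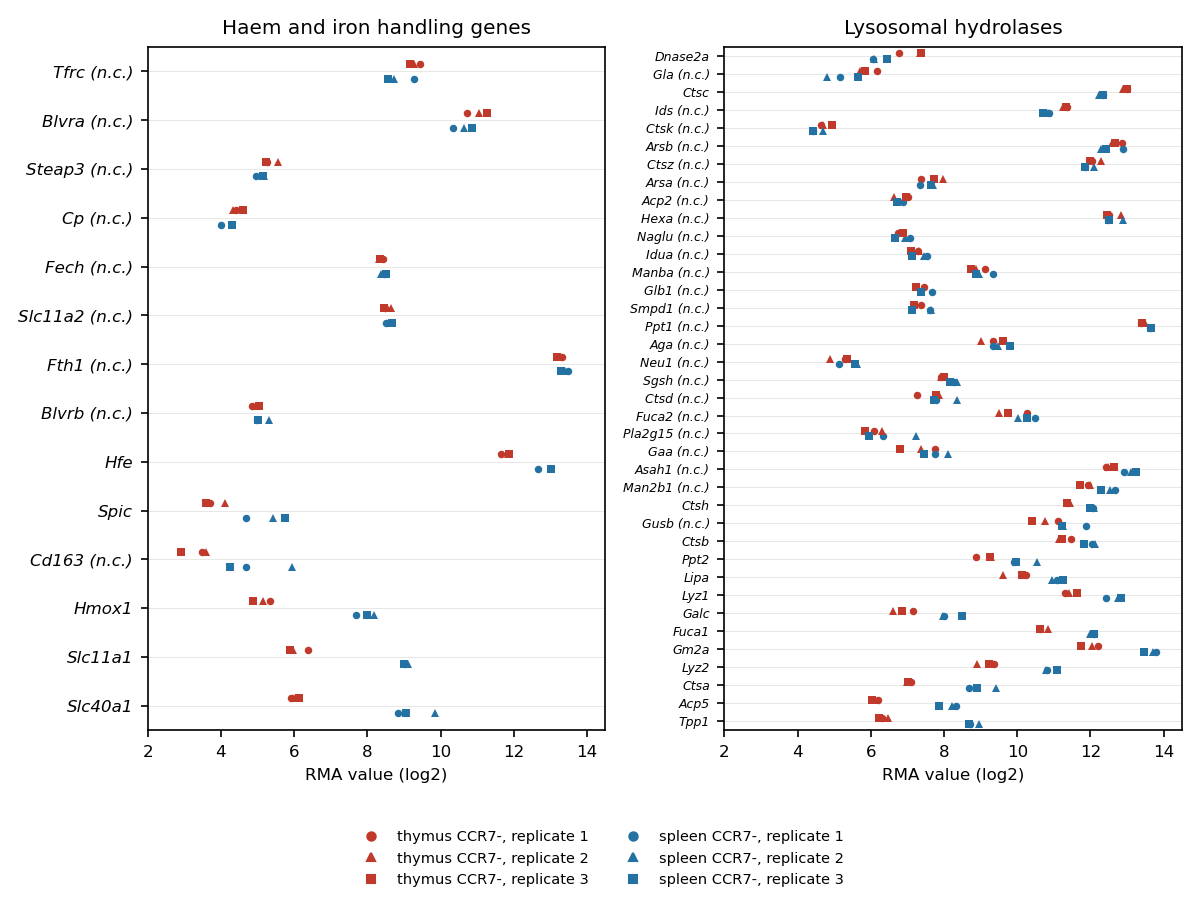
Log2 RMA values (x axis) of all tested haem and iron handling genes (left panel) and lysosomal hydrolases (right panel), 1 point per array, thymus above spleen for each gene; n.c. marks genes not called. Hmox1, Slc11a1 and Slc40a1 show the widest gaps on the left, at 6.37 or less in thymus against 7.68 or more in spleen, and Tpp1 on the right, at 6.47 or less against 8.68 or more.

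Adhesion genes more familiar from epithelia were prominent among the rises, and a list of them was made for that reason. Of 32 tested junction genes 13 were called higher (40.6%, beside 4.92% of all genes) and 0 lower (beside 3.24%), with a median of 0.48. Cldn1 was the largest. Cldn7 had 7.52, 8.06 and 7.28 in thymus, against 4.86, 4.79 and 4.86 in spleen. Epcam, an adhesion molecule of epithelia and Langerhans cells, had 10.38, 10.52 and 10.43 in thymus, against 6.31, 6.77 and 6.15 in spleen (log2 difference 4.03 ± 0.29 SE, adjusted p = 6.57e-07), while its other tested probe set gave 0.40. F11r (JAM-A) had 10.35, 10.12 and 9.98 in thymus, against 5.25, 6.13 and 5.66 in spleen, with 0.09 on its other probe set. Cdh1, E-cadherin, had 4.99, 4.97 and 4.57 in thymus and was dim in spleen at 2.76, 2.86 and 2.37. Mpzl2, an immunoglobulin-type adhesion molecule found in thymic epithelium, rose by 1.87. Among leukocyte integrins Itga4, the VLA-4 chain, fell by 1.94, with all 5 tested probe sets called.

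Thymic epithelial markers are given beside the junction genes. Of 8 tested markers 2 were called higher (25.0%, beside 4.92% of all genes), Epcam and Krt8 (1.36). The summed signal, mostly Epcam, was 1611 to 1806 in thymus and 288 to 337 in spleen. Of the 8 differences 7 were positive, and 4 were higher at an unadjusted p under 0.05 in limma. Krt5, a keratin of medullary epithelium, had 5.16, 5.78 and 5.50 in thymus and 4.81, 4.86 and 5.10 in spleen, and was called under some alternatives (without thymus replicate 1, adjusted p = 0.0218) but not here (adjusted p = 0.0614). Ccl25, a thymocyte-attracting chemokine, differed by 0.64 (adjusted p = 0.14) and was called with the 6 CCR7- arrays fitted alone (adjusted p = 0.0337). Foxn1 had 4.48, 4.78 and 5.06 in thymus and 4.65, 4.54 and 4.41 in spleen, and Aire had 5.03, 5.11 and 5.17 in thymus and 4.88, 5.12 and 5.36 in spleen. Psmb11 and Cldn4 were dim on all 6 arrays. The part of epithelial RNA in the junction gene differences was not tested.

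T cell and thymocyte genes rose in part. Of 15 tested markers 3 were called higher (Rag1, Bcl11b and Cd3g) and 0 lower. The share was 20.0%, beside 4.92% of all genes. The summed signal was 660 to 1339 in thymus and 399 to 496 in spleen. Rag1 had 5.96, 7.39 and 5.45 in thymus, against 2.63, 2.61 and 2.63 in spleen. Bcl11b, a T lineage transcription factor, rose by 2.45, but the mean of its 4 tested probe sets was not called (adjusted p = 0.0555). Cd3g had 5.73, 7.35 and 5.88 in thymus, against 3.97, 3.89 and 4.80 in spleen. Thymus replicate 2 was the highest for both, and also for Dntt, the template-free polymerase, at 6.23 beside 4.87 and 4.70 in the other thymus arrays. Cd3e was level at 4.65, 5.01 and 4.89 in thymus and 4.81, 4.99 and 5.07 in spleen. Of the 11 tested B cell markers Ms4a1 alone was called, lower in thymus at -1.73 (9.09%, beside 3.24% of all genes). It lost that call with any 1 array left out (-1.60 to -1.81). With the replicate number as a block 2 B cell markers were lower. The plasma cell gene Jchain had 7.64, 7.95 and 6.40 in thymus and 5.05, 11.23 and 10.88 in spleen, so 1 spleen array lacked what the others held. Whether RNA of lymphocytes adds to other differences was not tested.

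Genes of the amino acid starvation response, which Atf4 switches on when amino acids or folded protein run short, formed another group picked after the values were seen. Of 26 tested members 10 were called higher (38.5%, beside 4.92% of all genes) and 0 lower (beside 3.24%). The median was 0.56, and the count of rises was 6 without thymus replicate 3. Asns, asparagine synthetase, had 9.69, 9.21 and 9.43 in thymus, against 6.36, 6.01 and 6.22 in spleen (log2 difference 3.25 ± 0.19 SE, adjusted p = 8.17e-08). Trib3, a pseudokinase induced by Atf4, had 7.43, 7.70 and 7.85 in thymus, against 5.4, 5.58 and 5.58 in spleen. Slc7a5, a transporter of large neutral amino acids, rose by 1.40 and Slc7a1, a transporter of basic ones, by 1.09 (0.21 on the lowest of its 3 tested probe sets). For each of these 4 the tissues were separate.

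Immediate-early genes, which respond within minutes to signals and to tissue handling, were not called in either direction by limma among 20 tested members. Of all genes 8.16% were called. At an unadjusted p under 0.05 there were 0 higher and 3 lower. Their median was -0.49, and 3 of the 20 differences were positive. With the replicate number as a block 3 were called lower, and without thymus replicate 3 there was 1. The mean log2 signal of the list was 10.65, 10.49 and 11.46 in thymus and 10.98, 11.34 and 11.84 in spleen, and replicate 3 was the highest in both tissues. Heat shock genes gave 0 calls in either direction among 9 tested, beside 8.16% of all genes, and likewise 0 at an unadjusted p under 0.05 in limma. With the probe set of largest variance 1 was called lower.

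The CCR7+ cells of untreated mice provide the same tissue comparison in other arrays. Those arrays shared the fit, its estimate of spread, the probe set choice and the filter with the CCR7- arrays, so the comparisons are not independent. Whether arrays of the same replicate number were linked across the fractions was not tested. There 1660 of the 13629 genes were called (12.2%). Of the 1112 genes called in CCR7- cells 396 were called in the same direction in CCR7+ cells, which is 35.6% of the CCR7- calls and 23.9% of the CCR7+ calls, and 19 were called in the opposite direction. The tissue difference itself differed between the fractions for 433 of all tested genes (3.18%) and for 225 of the 1112, of which 196 had the larger difference in CCR7- cells. Choosing genes by their difference in CCR7- cells favours that order.

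Named genes fell into several patterns. Oas1a kept a difference of 3.12 in CCR7+ cells, and Ptgis and Slc11a1 kept differences of -3.42 and -2.80. Zmynd15 was at 12.79 ± 0.07 in thymus CCR7+ cells and 11.28 ± 0.14 in spleen CCR7+ cells (SD, n = 3 each), so its difference there was 1.51, smaller than in CCR7- cells by 4.74 (adjusted p = 5.04e-04). Serpinb2 was dim in both CCR7+ groups, at 4.04 ± 0.25 in thymus and 3.96 ± 0.14 in spleen. Klrb1b and Cd84 stood at 4.97 and 5.57 in thymus CCR7+ cells, well under their values in thymus CCR7- cells. Itgae had a difference of 1.20 in CCR7- cells and of -1.39 in CCR7+ cells, and Ido1 had -1.18 in CCR7- cells and 1.45 in CCR7+ cells. The difference between the fractions was called for both (adjusted p = 4.84e-04 for Itgae and 0.00378 for Ido1). Rag1 had the larger difference in CCR7+ cells, 6.29.

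**Figure D5:**
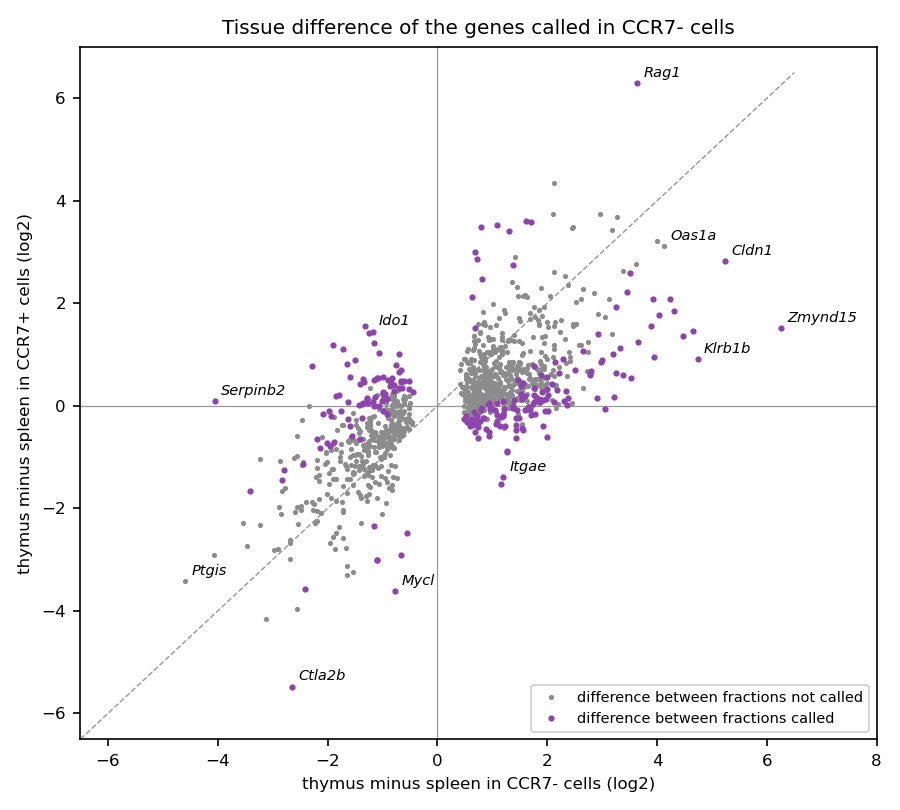
Tissue difference (thymus minus spleen, log2) of the 1112 genes called in CCR7- cells, in CCR7- cells (x axis) and in CCR7+ cells of untreated mice (y axis), 1 point per gene; purple points are the 225 genes whose tissue difference itself differed between the fractions, and the dashed line marks equal differences. Zmynd15 lies at 6.26 and 1.51, Serpinb2 at -4.06 and 0.09, and Itgae and Ido1 lie in opposite corners.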

How the data were processed

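Sorted XCR1+ DCs were profiled on 15 Affymetrix arrays, 3 in each of 5 groups taken from the labels. The deposited log2 values were made by the authors with RMA in affy, per the submitters' processing notes; the versions, and which arrays were normalised together, are not stated there. RNA was amplified in successive rounds per the labels' protocols. Array medians ran from 4.86 to 5.00. The number of arrays limits the precision.

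Of 45101 probe sets 34958 had 1 gene symbol in GEO's platform annotation, 932 several and 9211 none, and 18033 of 18194 symbols matched a RefSeq gene. Where several probe sets named a gene, the one with the highest mean over all arrays stood for it. Genes above the 40th percentile (4.39) in at least 3 arrays were tested, 13629 in all. limma 3.58.1 in R 4.3.3 fitted 5 group means to all arrays with eBayes (10 residual and 4.01 prior degrees of freedom), and calls were made at a Benjamini-Hochberg adjusted p under 0.05. The fit was also run on simulated data whose noise was independent between arrays. That run cannot check the fit where arrays of the same replicate number deviate together. Tables were made with pandas 2.3.3 in Python 3.11.15.

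Of 571 entries in 24 lists of gene programmes and 13 of other cell types 527 had a probe set; genes without one are not analysed here. The members and lists were chosen with earlier results of these data known, and 6 further lists after the values were seen here. Named genes are Zmynd15, Oas1a, the sort gates, the 15 largest called rises and falls of at least 2-fold without overlap, and up to 5 called rises and 5 falls per list; other list members were named after their values were seen.

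Arrays of the same replicate number deviated together from their group means (correlations 0.57, 0.52 and 0.56 between thymus and spleen CCR7- arrays). The labels do not say what the numbers mark. The main fit did not use them, and only the replicate block took them to pair the arrays. Alternatives were filters, probe set choice, scaling, trend and robust moderation, array weights, the 6 arrays alone, the replicate block, limma's treat at a log2 threshold of 1 and omission of each array.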

Additional observations from a re-analysis of the deposited data

Results flagged for a closer look

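The genes below are those whose tissue difference in CCR7- cells differed from that in CCR7+ cells of untreated mice (limma, contrast of the tissue differences, adjusted p under 0.05 over all 13629 genes). The values are log2, the thymus minus spleen difference in CCR7- cells minus that in CCR7+ cells. Most of these genes were named for a difference in CCR7- cells, a choice that favours large values here.

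Among genes higher in thymus CCR7- cells, the largest values were Zmynd15 4.74, Klrb1b 3.83, Cd84 3.20, F11r 3.10, Slfn3 2.99, Tnfsf13b 2.61 and Itgae 2.58. F2r had 2.46, Cldn1 2.42, Ms4a6d 2.42, Tm4sf5 2.32, Cd207 2.32, Epcam 2.26, Slfn1 2.16, Cldn7 2.14, Pvr 2.14 and Mgl2 2.12. Cdh1 had 1.86, Ifi204 1.83, Ifit2 1.54, Asns 1.32, Trib3 1.29, Rsad2 1.23, Siglech 1.04 and Xaf1 0.91. Rag1 at -2.65 and Dsp, a desmosomal linker, at -1.38 had the larger tissue difference in CCR7+ cells.

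Among genes lower in thymus CCR7- cells, Serpinb2 had -4.14, Ido1 -2.62, Ifitm2 -1.88, Tlr13 -1.83, Enpp5 -1.75, Itga4 -1.74, Fuca1 -1.41, Cacna1e -1.39, Gbp2 -1.38, Tpp1 -1.31 and Ctsb -1.05. Positive values belonged to Mycl 2.84, Cxcl9 2.24, Hfe 1.89 and Cadm1 1.18, each lower in thymus by more in CCR7+ cells. Itgax, which codes for the gated CD11c, had 1.95, because its difference was -0.37 in CCR7- cells and -2.31 in CCR7+ cells.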

How the results depend on the processing

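Counts of called genes stayed within 1.5 times of 671 higher and 441 lower under every alternative except array weights, with 1142 higher and 846 lower, and limma's treat at a log2 threshold of 1, with 82 higher and 46 lower at any size or at 2-fold. That stricter test also left 10 type I interferon genes, 2 maturation genes, 2 haem and iron genes and 0 cell cycle genes (7 at its unadjusted p under 0.05). Cell cycle calls were 23 with array weights and ranged from 4 to 21 with single arrays left out. The replicate block, which uses the pairing of the numbers, gave 706 higher and 495 lower and ended 4 of 141 named calls: Cxcl9, Pecam1 (adjusted p = 0.057), Slfn4 (0.0501) and Cd5l (0.0559). Leaving out an array ended 41 of the 141, with 457 to 615 genes higher and 294 to 365 lower. Of the 145 named genes only Ccr7, not called, changed sign: its difference ranged from -0.063 (without spleen CCR7- replicate 1) to 0.705 (without spleen CCR7- replicate 3). The median difference of all genes moved by less than 0.1 under every setting. Causes were not tested.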

Other observations

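Of 21 tested uptake receptors and lectins 4 were called higher (19.0%, beside 4.92% of all genes) and 2 lower (9.52%, beside 3.24%), with a median of -0.23. The rises were Klrb1b, Mgl2, Cd207 and Axl, whose call was lost without any 1 of the 6 CCR7- arrays other than spleen replicate 2. The falls were Fcgr4, an activating antibody receptor, which had 5.30, 5.49 and 5.62 in thymus, against 6.69, 7.22 and 7.02 in spleen, and Mrc1, the mannose receptor (-2.34), a call lost without thymus replicate 2 (-2.25) or spleen replicates 2 or 3 (-2.14 and -2.32). Of 14 chemokine and migration receptors 0 were called higher (beside 4.92% of all genes) and 1, Cxcr3, lower (7.14%, beside 3.24%). Cxcr3 differed by -0.83 and lost its call with any 1 array left out. With the replicate number as a block 3 of these receptors were lower. At an unadjusted p under 0.05 in limma 0 were higher and 4 lower. Of 16 tested cholesterol synthesis genes 0 were called higher (beside 4.92% of all genes) and 1 lower (6.25%, beside 3.24%). Their median was -0.04 in CCR7- cells. In CCR7+ cells 11 of the same 16 were called lower in thymus, beside 3.47% of all genes. Of 16 glycolysis genes 1 was called higher (6.25%, beside 4.92% of all genes) and 1 lower (6.25%, beside 3.24%). The rise was the glucose transporter Slc2a1 (0.95, and 0.67 and not called on a probe set without a cross-hybridisation suffix). The fall was the aldolase Aldoc (-1.24). Of 20 DC transcription factors 0 were called higher (beside 4.92% of all genes) and 2 lower (10.0%, beside 3.24%). Their median was -0.33, and 0 or 1 were lower with any 1 array left out. Mgl2, a lectin of CD172a+ DCs, had 6.84, 6.86 and 6.27 in thymus CCR7- cells and was dim in spleen CCR7- cells at 3.88, 3.59 and 3.55. It was the only 1 of 6 tested CD172a+ DC markers called (16.7%, beside 4.92% of all genes). Of those 6 differences 3 were positive, the median was -0.10 and the lowest -1.08. Kdr, a receptor for vascular endothelial growth factor, had 8.79, 9.19 and 8.48 in thymus, against 6.70, 7.22 and 6.18 in spleen. Of 3 tested endothelial genes Kdr alone was called higher (33.3%, beside 4.92% of all genes). Pecam1 alone was called lower (33.3%, beside 3.24%), at -0.54, a call lost with any 1 array left out. Cdh5, Tek and Emcn, other endothelial genes, were dim on all 6 arrays.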
